A study of Mus musculus with 6 samples.

Results

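Dgat1 and the genes that build, coat and break down lipid droplets were followed in CD4+ T cells of memory phenotype from mice with experimental autoimmune encephalomyelitis (EAE), an inflammatory disease of the spinal cord. The 10 genes were Dgat1, Dgat2, Acsl3, Plin2, Plin3, Pnpla2, Abhd5, Mgll, Hilpda and G0s2, and every probe set annotated with exactly 1 gene symbol from among them was taken. This gave 20 probe sets of the 45101 on the array, of which 45037 were not controls. A probe set is a group of short probes whose brightness is summarised into 1 intensity for a transcript.

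Both groups of samples were female C57BL/6 mice, 8 to 10 weeks old, with EAE induced by the MOG35-55 peptide of a myelin protein and taken at the acute clinical stage. One group of 3 arrays held cells from the spinal cord, and the other group of 3 held cells from the inguinal lymph node, which drains the immunisation site. Neither group carried an altered gene or a treatment beyond the induction of EAE, as far as the labels say. They do not say how many animals gave the RNA of an array, so every p-value measures the spread between these arrays, which may be technical.

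Cells store surplus fatty acids as triglyceride in lipid droplets, which grow from the endoplasmic reticulum and carry a coat of perilipin proteins. Diacylglycerol acyltransferases make the triglyceride, and a chain of lipases takes it apart again when fatty acids are needed. DGAT1 can also esterify retinol, the precursor of retinoic acid, and the series title names this gene together with retinol and regulatory T cells.

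Of the 20 member probe sets, 3 differed between the tissues by limma with Benjamini-Hochberg adjustment over all probe sets, where 1.19% of all probe sets did. Dgat1 and Plin2 rose in spinal cord cells, 1 probe set each, and 1 probe set of Acsl3 fell. Over all probe sets 0.573% rose and 0.613% fell. In 11 of the 20 the intensities of the tissues did not overlap, 7 higher and 4 lower in the spinal cord, where 15.9% of all probe sets did not overlap, 8.3% higher and 7.57% lower. Probe sets of 1 gene are not independent. By the probe set of highest mean, 5 of the 10 genes did not overlap, where 18.5% of all genes did not. The median log2 change of the member probe sets was 0.40, and that of all probe sets was 0.02. The members were chosen with earlier results of these data known, so these shares describe them and are no test of them. The samples are bulk RNA, so fewer cells of a type and less RNA per cell cannot be told apart.

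Each tissue has arrays numbered 1 to 3 by their titles, and arrays of the same number deviated together. The labels do not say what a number shares, so the block was inferred from these same values. With that number as a block in the limma fit, 7 member probe sets were higher and 3 lower, where 6.2% of all probe sets were called, 2.47% higher and 3.74% lower. The 7 were both probe sets of Dgat1, that of Plin2 and all 4 of Mgll, and the 3 were that of Plin3 and 2 of Acsl3, 1 of them with every spinal cord value below the 20th percentile.

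**Figure D1:**
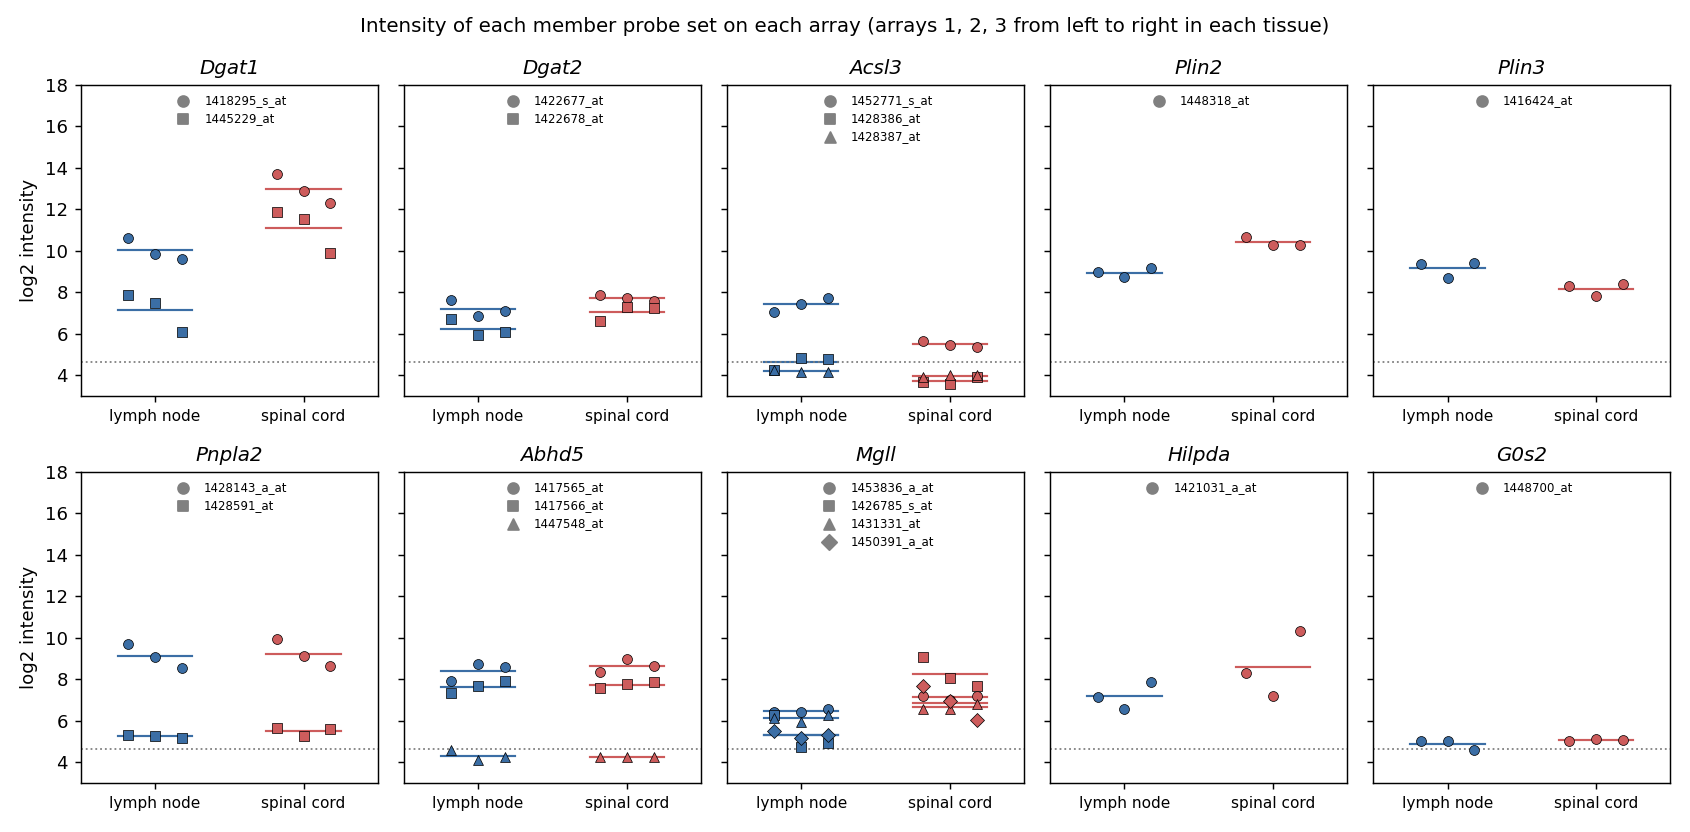
Log2 intensity (vertical axis) of every member probe set on each array, 1 panel per gene, with lymph node arrays in blue and spinal cord arrays in red. Horizontal bars are tissue means, marker shapes are probe sets and the dotted line is the 20th percentile of all values. The Dgat1, Plin2 and Mgll points of the spinal cord lie above those of the lymph node within each probe set, and those of Plin3 and Acsl3 lie below.

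The arrays had median intensities of 68 to 71. The markers of CD4+ T cells were bright in both tissues. The brightest of the list, Il7r, read 9369 to 15762 in spinal cord against 12417 to 14950 in lymph node. Cd4 read 2763 to 6371 in spinal cord against 2063 to 7669 in lymph node, Cd3e read 1358 to 2153 and 1248 to 2124, and the memory marker Cd44 read 6312 to 10631 and 6456 to 8551. The actin 5′ signal was 20.3% to 40.5% of the 3′ signal in spinal cord against 8.86% to 56.8% in lymph node, highest on array 3 of each tissue. For Gapdh it was 5.32%, 4.05% and 24.2% on spinal cord arrays 1, 2 and 3. On the lymph node arrays it was 7.10%, 3.07% and 25.1%. This measure of RNA quality thus differed by array number, and its part in the member values was not tested.

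Markers of macrophages, monocytes and microglia moved with tissue, as Dgat1, Plin2 and Mgll did. All 20 measured had positive changes, 18 without overlap, and 0 were called by limma (18 higher and 0 lower at an unadjusted p below 0.05; 6 higher with the block). Their summed intensity was 6825 to 13117 in spinal cord against 2691 to 3451 in lymph node. Without Ccr2, which T cells also express, the other 19 summed to 1698 on spinal cord array 1, 6303 on array 2 and 3580 on array 3, and to between 937 and 1038 in lymph node. With Ccr2 the lowest sum in spinal cord was that of array 3 and without it that of array 1, and the highest was that of array 2 in both. Ccr2 read 3245 to 6814 in spinal cord against 1754 to 2484 in lymph node. Csf1r read 237, 1486 and 754 in spinal cord against 57 to 99 in lymph node, and Itgam read 22 to 27 on all arrays. All 7 dendritic cell markers measured had positive changes, 4 without overlap, with a median of 0.18. Of these, limma called 1, Itgax (adjusted p = 0.0193), which read 229, 315 and 246 in spinal cord against 97, 79 and 97 in lymph node. The part of such cells in the member values was not tested.

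Neutrophil markers summed to 1033, 2683 and 1193 in spinal cord against 589 to 787 in lymph node. Of their changes 12 of 13 were positive and 0 called (3 higher and 0 lower unadjusted, and 1 higher with the block, Mmp9). Mmp9 read 259 to 420 in spinal cord against 96 to 145 in lymph node, and Ngp read 75, 583 and 164 against 52 to 82. B cell markers summed to 425 to 456 in spinal cord against 1013 to 1066 in lymph node, and 1 of the 9, Cd22, fell, from 620 to 750 in lymph node to 98 to 116 (limma adjusted p = 0.00307), while the other 8 summed to 327 to 348 in spinal cord against 316 to 435 in lymph node. Of the 9, 4 changes were positive and 5 negative, with a median of -0.02 (1 higher and 2 lower unadjusted), and with the block Cd79b was lower too. Pax5 read 56 to 74 in spinal cord against 45 to 59 in lymph node, and Cd79a read 36 to 63 on all arrays. Fat cell markers, of interest because the inguinal node lies in fat, summed to 325 to 367 in spinal cord against 310 to 336 in lymph node, with 6 changes positive and 1 negative. The brightest, Retn, read 118 to 119 and 98 to 115, and Car3 read 74 to 105 and 74 to 98, while Adipoq, the 1 with a negative change, read 20 on each spinal cord array and 27 to 39 in lymph node. Of the adipocyte list 0 of 7 were called (0 higher and 1 lower unadjusted). Of the neuron markers 0 of 7 were called. Rbfox3 read 173 to 208 in spinal cord against 154 to 180 in lymph node, and Stmn2 read 103 to 125 and 114 to 180. A dimmer one, Snap25, read 14 to 17 on all arrays.

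**Figure D2:**
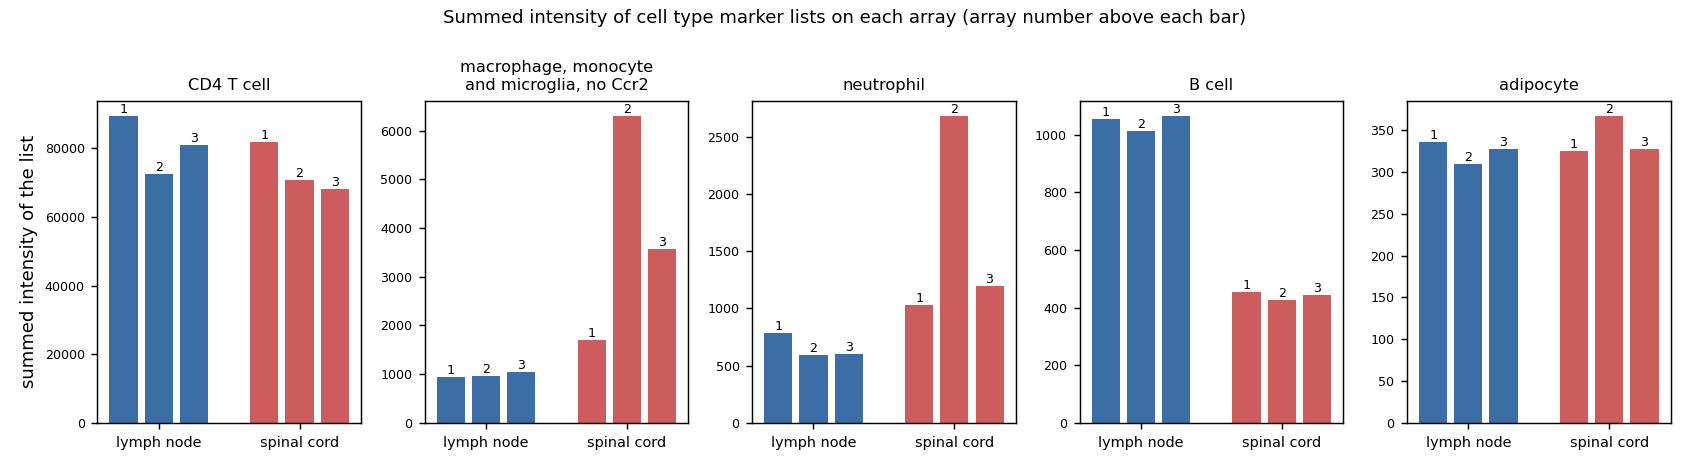
Summed intensity (vertical axis, from 0) of 5 lists of cell type markers on each array, with the array number above each bar, lymph node in blue and spinal cord in red. The macrophage list without Ccr2 and the neutrophil list are highest on spinal cord array 2, and the T cell list is bright on every array.

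Dgat1 encodes the acyltransferase that joins a fatty acid to diacylglycerol, the last step of triglyceride synthesis. Its brighter probe set, 1418295_s_at, read 13544 on spinal cord array 1, 7536 on array 2 and 5158 on array 3, against 1588, 936 and 780 for lymph node. All spinal cord arrays lay above all lymph node arrays, and in both tissues array 1 was highest and array 3 lowest. The log2 means were 12.98 ± 0.70 and 10.04 ± 0.53 (SD, n = 3 each), a 7.69-fold rise (log2 change 2.94, 95% confidence interval 1.90 to 3.98, limma adjusted p = 0.0437). Leaving out any 1 array ended the call, with log2 changes of 2.57 to 3.27 and limma adjusted p from 0.0718 to 0.196. By exact permutation (two-sided) p was 0.1, and 3 arrays in each tissue allow no smaller value.

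The second Dgat1 probe set, 1445229_at, read 3777, 2990 and 964 in spinal cord against 234, 180 and 68 in lymph node. It too had no overlap, and its array 1 was highest and array 3 lowest in each tissue. Its log2 change was 3.96 (95% confidence interval 2.32 to 5.61), with a limma adjusted p of 0.0691 that fell to 0.00225 with the block. Within arrays of one number the ratio of spinal cord to lymph node was 16.1, 16.6 and 14.2 for this probe set and 8.53, 8.05 and 6.61 for the brighter one. These ratios spread less than the arrays of 1 tissue did, since the brightest spinal cord array exceeded the dimmest 3.92-fold for the second probe set and 2.63-fold for the brighter one. The order in which array 1 is highest and array 3 lowest in both tissues was seen in 3 of the 20 member probe sets, those of Dgat1 and 1 of Pnpla2, and in 7.68% of all probe sets. The summed signal of the poly-A control transcripts had the same order, at 29053, 4419 and 1729 in spinal cord against 18490, 11324 and 3485 in lymph node. Its part in the Dgat1 values was not tested.

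Dgat2 encodes an acyltransferase of an unrelated family that catalyses the same reaction. Probe set 1422677_at read 238, 216 and 192 in spinal cord against 199, 118 and 136 in lymph node, and 1422678_at read 98, 158 and 150 against 105, 61 and 69. The tissues overlapped on both probe sets, because lymph node array 1 reached the spinal cord range. The log2 changes were 0.54 (95% confidence interval 0.01 to 1.07, limma adjusted p = 0.412) and 0.80 (0.12 to 1.48, adjusted p = 0.335), and neither was called with the block. The change of Dgat1 exceeded that of Dgat2 by 2.40 on the log2 scale, taken as the difference of the brighter probe sets within each array. That difference was 5.83, 5.12 and 4.75 in spinal cord against 3.00, 2.99 and 2.52 in lymph node. The ranges did not overlap (exact permutation p = 0.1, the smallest possible, and 0.1 after Benjamini-Hochberg adjustment over the 2 pairs of members compared).

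Acsl3 encodes a long-chain acyl-CoA synthetase of the endoplasmic reticulum and nascent droplets, which activates fatty acids before they are esterified. Probe set 1452771_s_at read 51, 45 and 42 in spinal cord against 133, 176 and 215 in lymph node. Every lymph node array was brighter than every spinal cord array, and Acsl3 fell 3.74-fold (log2 change -1.90, 95% confidence interval -2.39 to -1.42, limma adjusted p = 0.0170). The call held without lymph node array 1 or lymph node array 3 (adjusted p = 0.0333 and 0.0451) and was lost without lymph node array 2, spinal cord array 1, spinal cord array 2 or spinal cord array 3 (0.0964, 0.0593, 0.102 and 0.0767). The ratio of lymph node to spinal cord was 2.61, 3.91 and 5.12 in arrays 1, 2 and 3. The other probe sets of Acsl3 were dim: 1428386_at read 12 to 15 in spinal cord against 19 to 29 in lymph node, and 1428387_at read 15 to 16 and 18 to 19. The 20th percentile of all values was 25, so the spinal cord values of both lay in the dimmest part of the array. Values that dim have only a bound, so the log2 changes (-0.91 and -0.23, limma adjusted p = 0.131 and 0.437) say little about Acsl3. With every value raised to at least 25 the first was -0.13 (adjusted p = 0.566) and the second gave no value, so the block call of the first (adjusted p = 0.0451) rests on values below that level.

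Plin2 encodes perilipin 2, a coat protein that is stable when bound to droplets and is present on them in most cell types. Its only probe set, 1448318_at, read 1653, 1268 and 1268 in spinal cord against 501, 425 and 576 in lymph node. The tissues were apart by a wide gap compared with the spread inside either, and Plin2 rose 2.79-fold (log2 change 1.48, 95% confidence interval 1.06 to 1.90, limma adjusted p = 0.0228). The ratio of spinal cord to lymph node was 3.30, 2.98 and 2.20 in arrays 1, 2 and 3. Leaving out any 1 array ended the call although the log2 change stayed between 1.35 and 1.59 (adjusted p from 0.0544 to 0.104).

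Plin3 encodes perilipin 3, a coat protein that moves between the cytosol and young droplets. Probe set 1416424_at read 316, 228 and 339 in spinal cord against 665, 418 and 693 in lymph node. Every spinal cord array lay below every lymph node array. The log2 change was -0.99 (95% confidence interval -1.62 to -0.37), which was not called by limma (adjusted p = 0.189) and was called with the block (0.0135). The ratio of lymph node to spinal cord was 2.10, 1.83 and 2.04 in arrays 1, 2 and 3. On the same arrays the log2 difference of Plin2 minus Plin3 was 2.39, 2.48 and 1.90 in spinal cord against -0.41, 0.02 and -0.27 in lymph node. The difference of these means was 2.47, with no overlap between tissues (exact permutation p = 0.1, the smallest possible, and 0.1 after adjustment over the 2 pairs).

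Plin2 and Acsl3 are shown with their promoters because they were called in opposite directions and have an entry in the RefSeq promoter table of build GRCm38.p6, which held 8 of the 10 genes in 10 windows; Dgat1 and Dgat2 had none. Each sequence is the 250 bases before the annotated start of the gene, 5′ to 3′ on the strand of the gene. The Plin2 window is chr4:86670060-86670309 on the minus strand and the Acsl3 window is chr1:78657575-78657824 on the plus strand. Capitals mark ACGTG or GCGTG on either strand, the core letters recognised by hypoxia-inducible factors.
Plin2: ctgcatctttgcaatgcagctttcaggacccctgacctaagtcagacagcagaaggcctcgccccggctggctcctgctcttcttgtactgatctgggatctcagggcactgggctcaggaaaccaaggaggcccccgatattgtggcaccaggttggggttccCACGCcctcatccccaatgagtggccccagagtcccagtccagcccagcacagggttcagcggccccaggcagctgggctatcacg
Acsl3: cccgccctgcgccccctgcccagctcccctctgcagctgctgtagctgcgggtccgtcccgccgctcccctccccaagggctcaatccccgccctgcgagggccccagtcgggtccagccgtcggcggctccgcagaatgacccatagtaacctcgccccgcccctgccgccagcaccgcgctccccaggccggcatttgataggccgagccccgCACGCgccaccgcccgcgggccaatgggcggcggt
Each window held 1 match, a GCGTG on the opposite strand, whose first base in the printed orientation lay 86 bases before the start in Plin2 and 35 bases before it in Acsl3. One or both cores were in 7 of the 10 member windows and in 38.6% of all 32851 promoter windows of that length. G and C made up 61.6% of the Plin2 window and 75.6% of the Acsl3 window, 48.4% to 75.6% of all 10 member windows, and 52.4% in the median of all promoter windows. The letters TTGCNNNAA, searched on both strands, were in 0 of the 10 member windows and in 8.29% of all. Such matches describe the letters of these windows and are not evidence of binding.

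**Figure D3:**
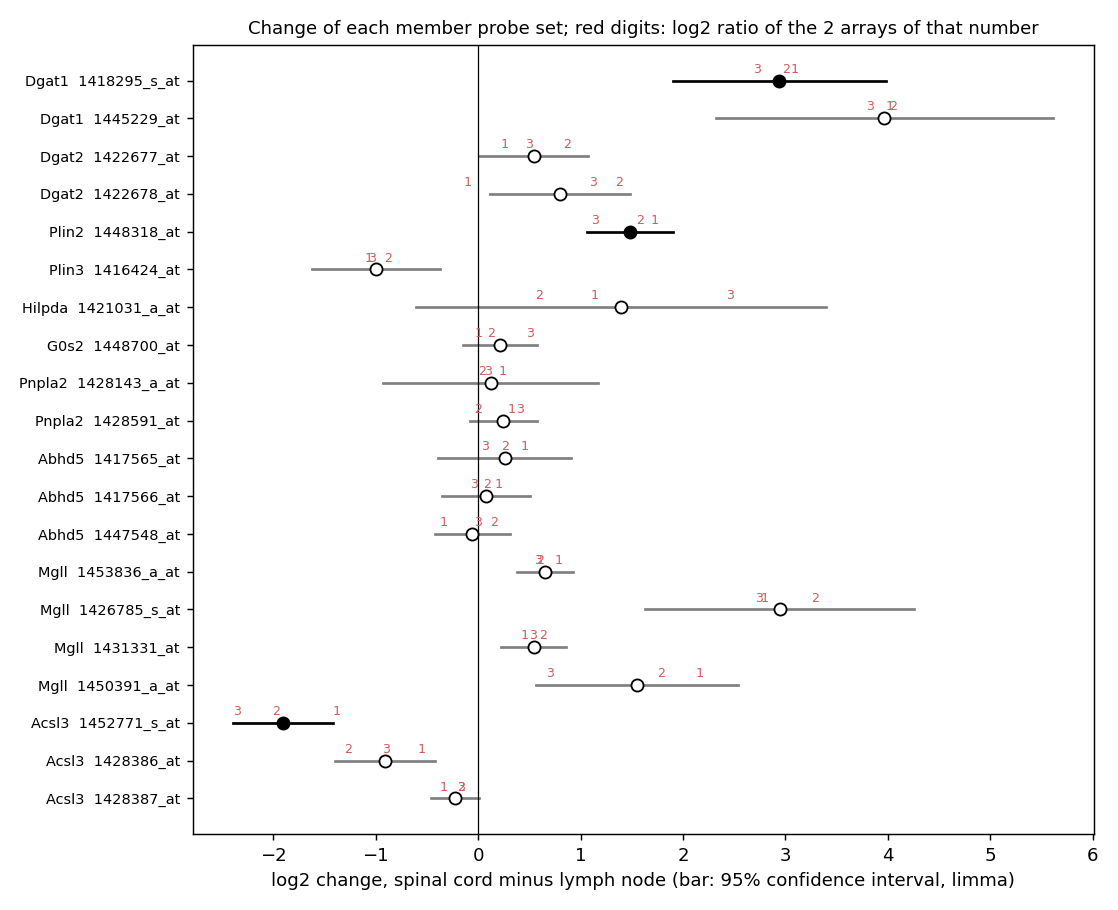
Log2 change, spinal cord minus lymph node (horizontal axis), of each member probe set, with its 95% confidence interval from limma as a bar. Filled points are the 3 probe sets called at an adjusted p below 0.05, and red digits are the log2 ratios within arrays 1, 2 and 3. The Dgat1 digits lie close together although its bars are wide, and the Hilpda digits are spread.

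Breakdown of stored triglyceride begins with adipose triglyceride lipase, the product of Pnpla2. Its brighter probe set, 1428143_a_at, read 986, 549 and 395 in spinal cord against 836, 535 and 370 in lymph node. The tissues overlapped throughout, and the ratio within arrays of one number was 1.18, 1.03 and 1.07. The log2 change was 0.12 with a 95% confidence interval of -0.93 to 1.17 (limma adjusted p = 0.952; 0.558 with the block). The second probe set, 1428591_at, read 39 to 50 in spinal cord against 36 to 40 in lymph node (log2 change 0.25, adjusted p = 0.572).

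Abhd5 encodes the protein that activates this lipase. Probe set 1417565_at read 328, 504 and 397 in spinal cord against 240, 419 and 379 in lymph node, and 1417566_at read 188, 215 and 234 against 164, 202 and 241. The tissues overlapped on both. The log2 changes were 0.26 (95% confidence interval -0.39 to 0.91) and 0.08 (-0.35 to 0.51), and neither was called with or without the block. The third probe set, 1447548_at, read 17 to 24 on all 6 arrays, below the 20th percentile of all values.

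Mgll encodes monoacylglycerol lipase, which releases the last fatty acid and also degrades an endocannabinoid. It had 4 probe sets, and on each of them every spinal cord array was brighter than every lymph node array. Probe set 1426785_s_at read 543, 264 and 201 in spinal cord against 78, 27 and 30 in lymph node, and its log2 change was 2.94 (95% confidence interval 1.63 to 4.26, limma adjusted p = 0.0831; 0.00355 with the block). Probe set 1450391_a_at read 201, 124 and 65 in spinal cord against 45, 36 and 40 in lymph node, and its log2 change was 1.55 (adjusted p = 0.193; 0.0496 with the block). These probe sets were brightest in spinal cord array 1. The lymph node values 27 and 30 of 1426785_s_at lie just above the 20th percentile of 25, where the size of a log2 change is uncertain.

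The other Mgll probe sets showed smaller differences and tighter replicates. Probe set 1453836_a_at, the one of highest mean, read 148, 129 and 144 in spinal cord against 86, 85 and 96 in lymph node. Its log2 change was 0.66 (95% confidence interval 0.38 to 0.93, limma adjusted p = 0.0704). It was called with the block (adjusted p = 0.0343) and when limma was run on 1 probe set per gene (0.0496), a fit that called 2.54% of all genes, 1.13% higher and 1.41% lower. Probe set 1431331_at read 96, 96 and 112 against 70, 62 and 77, a log2 change of 0.54 (adjusted p = 0.163; 0.0494 with the block). The probe sets shared a direction, while their log2 changes ran from 0.54 to 2.94, the largest being that of 1426785_s_at with its dim lymph node values. Whether they detect different Mgll transcripts was not analysed here.

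Hilpda and G0s2 encode small proteins that bind and inhibit adipose triglyceride lipase, and Hilpda is known as a target of hypoxia-inducible factors. Hilpda, by 1421031_a_at, read 314, 145 and 1291 in spinal cord against 143, 96 and 234 in lymph node. Spinal cord array 3 was 8.90-fold brighter than spinal cord array 2, and array 3 was also the brightest in lymph node. The tissues overlapped, and the log2 change was 1.40 with a 95% confidence interval of -0.60 to 3.40 (limma adjusted p = 0.608; 0.0996 with the block). Without spinal cord array 3 it was 0.53, and without spinal cord array 2 it was 2.11, and neither was called. Within arrays of one number the ratio was 2.20, 1.51 and 5.52, above 1 in each. G0s2, by 1448700_at, read 32, 35 and 34 in spinal cord against 32, 32 and 24 in lymph node, close to the 20th percentile of 25 (log2 change 0.21, 95% confidence interval -0.15 to 0.57, adjusted p = 0.689).

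The log2 pattern of Dgat1 over the 6 arrays was compared with those of 12784 genes, each represented by its probe set of highest mean, where that mean lay above the 40th percentile. The genes with the highest Pearson correlation were Gm36723 (0.998), Tnf (0.997), Cd24a (0.993), Shisal2b (0.993) and Mapkapk3 (0.993), a description over 6 arrays that share tissue and array number. Tnf encodes an inflammatory cytokine and Mapkapk3 a kinase downstream of p38. Cd24a encodes a surface glycoprotein. Each of the 5 had no overlap between tissues, with intensities of 1682 to 3532 in spinal cord against 470 to 774 in lymph node for Tnf and of 6735 to 14851 and 1810 to 3762 for Mapkapk3. Among the members the correlation with Dgat1 was 0.952 for Plin2, 0.910 for Mgll and 0.874 for Dgat2, and it was -0.940 for Acsl3 and -0.802 for Plin3. G0s2 stood at 0.625, Pnpla2 at 0.433, Hilpda at 0.418 and Abhd5 at 0.160.

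The wider pathway changed about as often as other genes did. Of 103 further genes of triglyceride synthesis, sterol and retinol esterification, droplet formation, lipolysis, fatty acid uptake, fatty acid oxidation and their transcription factors, 92 were measured and 11 were not analysed here. By limma over all probe sets 2 of the 92 rose and 0 fell (8 higher and 8 lower at an unadjusted p below 0.05), where 1.7% of all genes were called, 0.77% higher and 0.934% lower. With the block 3 were higher and 4 lower, where 7.9% of all genes were called, 2.87% higher and 5.03% lower. The tissues did not overlap in 10 genes higher and 7 lower in spinal cord, where 8.81% and 9.68% of all genes were higher or lower without overlap. The median log2 change of the 92 was 0.03, and that of all genes was 0.00.

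The 2 that rose were transcription factors. Cebpb, a factor of inflammation and of fat cell differentiation, read 606, 525 and 686 in spinal cord against 193, 153 and 195 in lymph node (3.36-fold, log2 change 1.75 ± 0.16 SE, limma adjusted p = 0.0127). Epas1, which encodes hypoxia-inducible factor 2-alpha, read 1625, 1294 and 1589 against 427, 576 and 478 (3.05-fold, 1.61 ± 0.16 SE, adjusted p = 0.0152). For both genes the tissues were far apart compared with the spread of their arrays. When single arrays were left out, 2 of the 6 limma fits called Cebpb, those without lymph node array 1 or 3 (adjusted p = 0.0477 and 0.0442), and the others gave up to 0.0671, and 0 of 6 called Epas1, with adjusted p up to 0.0708. The related gene Hif1a read 11884 to 15609 in spinal cord against 8771 to 11805 in lymph node and was not called, with no overlap (0.45 ± 0.17 SE, adjusted p = 0.361). Cebpa had a log2 change of -1.06 ± 0.18 SE (adjusted p = 0.0717; 0.0324 with the block). The remaining transcription factors of the list were called neither with nor without the block.

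In triglyceride synthesis 0 of 17 measured genes were called by limma (1 higher and 0 lower at an unadjusted p below 0.05), with a median of 0.04. The gene with the smallest p was Agpat4, an acyltransferase of an earlier step, at 1305, 1491 and 3023 in spinal cord against 597, 603 and 1177 in lymph node (log2 change 1.27 ± 0.42 SE, adjusted p = 0.301; 0.00856 with the block). The ratio within arrays of one number was 2.19, 2.47 and 2.57. Of 12 further genes of the coat and droplet formation 0 were called (0 higher and 1 lower unadjusted), led by Hsd17b11 at -0.58 ± 0.20 SE (adjusted p = 0.337). Lrat, the main retinol esterification enzyme, read 16 to 18 on every array.

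In lipolysis 0 of 10 further genes were called by limma (2 higher and 2 lower unadjusted, median -0.18), and with the block Lipa and Pnpla8 were lower. Lipa, the acid lipase of lysosomes, read 949, 833 and 484 in spinal cord against 3077, 2279 and 857 in lymph node, and the tissues overlapped (log2 change -1.32 ± 0.52 SE, adjusted p = 0.405; 0.0273 with the block). The smallest p without the block in that list was that of Ces1d, at 18 to 27 on all arrays. In fatty acid oxidation 0 of 18 genes were called (1 higher and 3 lower unadjusted), and 14 of the 18 had negative changes, with a median of -0.19. Decr1, a mitochondrial reductase needed for unsaturated fatty acids, read 366, 371 and 579 in spinal cord against 861, 1084 and 1762 in lymph node with no overlap (-1.46 ± 0.32 SE, adjusted p = 0.130; 0.00845 with the block). In fatty acid uptake 0 of 13 were called (1 higher and 0 lower unadjusted), and the receptor gene Cd36, with the smallest p, read 14 to 30 on all arrays. The naming rule does not cover Lipa and Pnpla8, which were chosen after seeing their values, as were Abhd6, Hif1a, Cebpa, Cd79b, Cd4, Cd3e, Itgam, Cd79a, Adipoq and Snap25.

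**Figure D4:**
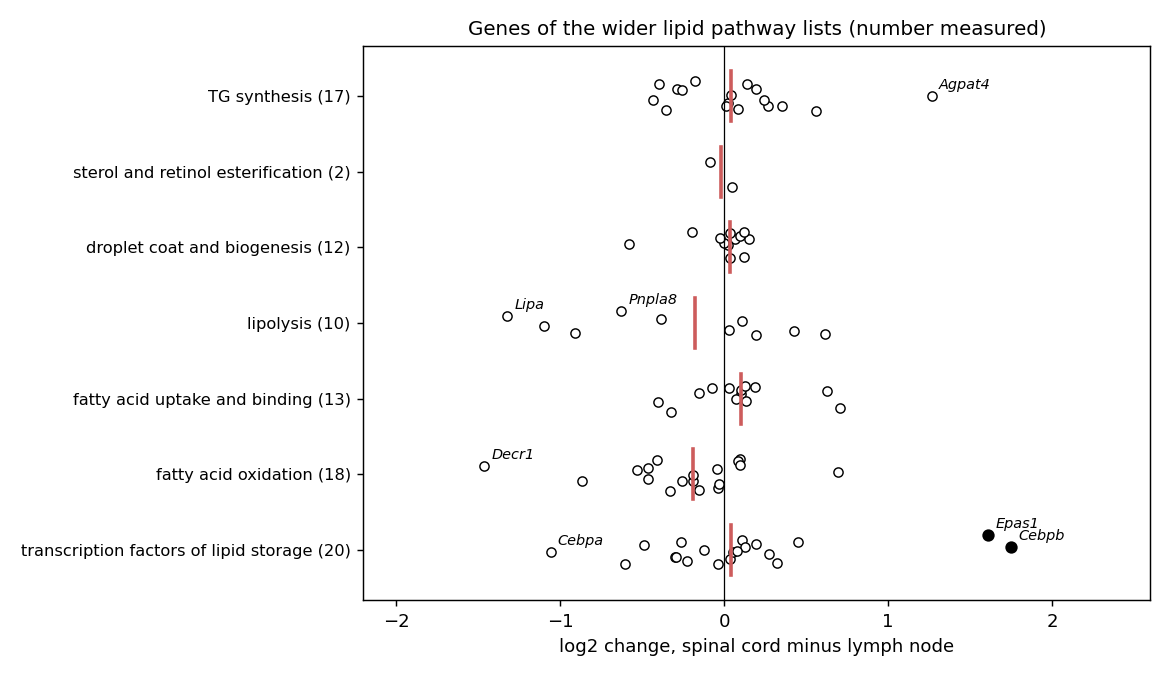
Log2 change, spinal cord minus lymph node (horizontal axis), of each gene of the 7 wider pathway lists, with the number measured in brackets and the list median as a red bar. Filled points are called by limma at an adjusted p below 0.05, and names mark genes called with or without the block. The list medians lie between -0.19 and 0.10. The furthest points from 0 are named, but some unnamed points lie further out than some named ones. In the lipolysis list the unnamed Abhd6 is at -1.10 and the named Pnpla8 at -0.63.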

How the data were processed

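RNA of 6 samples was hybridised to Affymetrix arrays. Per the labels' protocols, biotin-labelled cRNA was made from 1 ng of total RNA in 2 cycles of amplification, which favours the 3′ end and can add variation between arrays. Per the submitters' processing notes, the authors used RMA (background correction, normalization between arrays and a summary per probe set), whose version is not stated. What the authors deposited was linear intensity, rounded to whole numbers between 9 and 39505, and log2 was taken here. Rounding to whole numbers coarsens the dimmest values.

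Gene names came from the platform annotation, in which 34945 probe sets that are not controls had 1 symbol, 932 several and 9160 none. Limma 3.58.1 in R 4.3.3 (lmFit and eBayes) was fitted to all 45037 probe sets that are not controls, with 1 term, tissue, in a two-sided test, and called at a Benjamini-Hochberg adjusted p below 0.05 over all of them. Genes of the wider lists are represented by the probe set of highest mean. Intervals are 95% confidence intervals of the fit. Precision is limited by how few arrays there are. Any pair of arrays differed at 93.5% of probe sets or more, and 0 deposited sample columns were left out.

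Same-numbered arrays of the tissues were taken as pairs because their deviations from the tissue means, correlated across probe sets, were 0.608, 0.554 and 0.773, each above 0.1. Arrays of unlike number gave -0.549 to -0.0438. Deviations cancel within a tissue, which constrains these correlations. The pairing was inferred from the same values that the block fit tested, so the block p-values carry that limit. The labels do not say what a number shares. The alternatives were the replicate block, leaving out each array, a filter at the 40th percentile, quantile normalization, median centring, trend and robust variance, array weights, 1 probe set per gene, a floor at the 20th percentile and a stricter threshold of 0.01. On simulated data for this comparison over 45037 probe sets, limma recovered 30% of the probe sets given a log2 change of 1, 80% of those given 2, 92% of those given 3 and 92% of those given 4, and made 16 false calls. The simulated noise was independent between arrays, while real arrays of the same number deviated together, so these rates need not hold here.

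The members and the gene lists were chosen with earlier results of these data known. The naming rule took every member probe set, up to 4 called genes of each pathway list (or the 1 of smallest p), the 2 brightest genes of each marker list and the 5 genes most correlated with Dgat1; the dendritic, CD8 and natural killer, oligodendrocyte, astrocyte, neuron and endothelial lists were also measured. Of these, 1 dendritic gene, Itgax, was higher (adjusted p = 0.0193, not called once any 1 array was left out), 0 of the others were called, and their unadjusted counts were 2 higher and 1 lower. The brightest genes of these lists were Itgax and Flt3, Gzma and Eomes, Cnp and Mbp, Gfap and Slc1a3, Rbfox3 and Stmn2, and Pecam1 and Kdr. With the block Gzma was higher and Eomes lower (limma adjusted p = 0.00551 and 0.0206). Python 3.11.15, pandas 2.3.3, numpy 2.4.6, scipy 1.17.1 and matplotlib 3.10.9 were used for tables, tests and figures.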

Additional observations from a re-analysis of the deposited data

How the results depend on the processing

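Direction held for Dgat1, Plin2, Plin3, Hilpda, G0s2, Dgat2, Mgll and Acsl3 under every alternative that gave a value. It turned only for values near 0: Pnpla2 1428143_a_at ranged from -0.24 to 0.43 without single arrays, Abhd5 1417566_at from -0.0612 to 0.22 and Abhd5 1447548_at from -0.17 to 0.0802, the last including the block without a number. With quantile normalization and median centring the member counts stayed at 2 higher and 1 lower.

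Counts of calls moved much more. The replicate block gave 1111 probe sets higher and 1683 lower against 258 and 276 without it, 7 member probe sets higher and 3 lower against 2 and 1, and 4 pathway genes lower against 0, and Dgat1 had an adjusted p of 0.00256. The floor at the 20th percentile gave 32 higher and 27 lower, 0 of the members and 0 of the pathway genes. The brighter Dgat1 probe set, at 780 to 13544, lay above that floor on every array. Its log2 change stayed at 2.94, while its limma adjusted p was 0.142. The cause of the lost calls was not tested. At an adjusted p below 0.01 there were 39 higher and 28 lower, with 0 members and 0 pathway genes, and Dgat1 (2.94, adjusted p = 0.0437) was not called. Without dim probe sets 4 of 15 member probe sets were higher and 1 lower, where 296 and 299 of all 27022 probe sets kept were. With trend and robust variance 4 of 20 were higher and 1 lower, where 294 and 290 of all 45037 were. With 1 probe set per gene 1 pathway gene, Cebpa, was lower, where 1.41% of all genes were. Filtering, array weights and trend also called the second Dgat1 probe set (adjusted p = 0.0384, 0.0420 and 0.0353).

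Leaving out arrays gave 0 to 163 probe sets higher and 0 to 144 lower, 0 members higher, 0 to 1 lower, 0 to 1 pathway genes higher and 0 lower, and Dgat1 changes of 2.57 to 3.27. Without spinal cord array 2, the array whose loss left the fewest calls, 21 probe sets were higher. The zeros over all probe sets are those of the block without both arrays of a number, a setting chosen after seeing the data. There limma called 0 of all probe sets, and Dgat1 stood at 2.87, 2.91 and 3.05 (adjusted p from 0.115 to 0.241). In these fits 11 to 12 members had an unadjusted p below 0.05. So did 9981, 6357 and 5425 of all 45037 probe sets without number 1, 2 and 3. Without the block and 1 array, 10 to 12 members did, against 3953 to 5925 of all probe sets.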
